A study of Mus musculus with 2 samples.

Results

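Pmel, Mlana, Gpnmb, Slc45a2, Slc24a5, Gpr143 and Cd63 encode proteins of the melanosome, of its membrane or of the vesicles that build it. Trpm1, which encodes a cation channel, is grouped with them here. These 8 genes were chosen by name from the 14959 genes of a table of transcripts counted in single cells. The cells came from the mouse melanoma lines B16F0, which is labelled parental, and B16F10, a highly metastatic subclone, and the labels name no treatment or allele for either. Each transcript was caught in a droplet by its 3' end and counted through a unique molecular identifier (UMI). Since each cultured line gave 1 library, no difference below was checked against replicates, no p-value is given, and the intervals in brackets are 95% intervals for counting error alone.

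A melanosome is the lysosome-related organelle in which pigment cells make and store melanin. It starts as an endosome in which cleaved PMEL protein forms the amyloid fibrils that give the organelle its striped matrix, and CD63, a tetraspanin of endosomal vesicles, takes part in sorting PMEL onto these vesicles. MLANA binds PMEL and is needed for its processing, and GPNMB is a glycoprotein related to PMEL that is also made by macrophages. SLC45A2 and SLC24A5 are transporters that set the conditions for melanin synthesis inside the organelle, GPR143 is the receptor mutated in ocular albinism, and TRPM1 is a cation channel whose gene hosts the microRNA gene Mir211. Most of these genes are known targets of MITF, the transcription factor that governs the melanocyte lineage.

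The B16F0 library had 2582 cells with 94268486 UMIs in all, and the B16F10 library 1574 cells with 56748682. Median UMIs per cell were close, at 35503.5 and 34950.5. Levels are given as CPM, the UMIs of a gene per 1000000 UMIs of its library. The melanocyte lineage markers other than the 8 genes (Mitf, Sox10, Dct, Tyrp1 and Tyr) were all measured in both lines, and their summed level was 3906 CPM in B16F0 and 5419 CPM in B16F10. Of 10 macrophage markers listed, the 3 measured (Cd68, Cd14 and Lyz2) summed to 6.43 and 3.93 CPM, against 1745 and 1729 CPM of Gpnmb, which macrophages also make. The deposited first-level clustering placed 121 B16F0 cells and 43 B16F10 cells with the other line. Without them the log2 line ratio of Pmel was -0.81 instead of -0.76 and that of Trpm1 -1.28 instead of -1.22. In addition, 6 barcodes occurred in both libraries, and without them the ratios of Pmel and Trpm1 were -0.76 and -1.22.

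Promoter sequences of 4 of the 8 genes (Gpnmb, Slc24a5, Cd63 and Trpm1, the last with 2 annotated starts) were read from RefSeq on GRCm38.p6, in windows of 250 bases before to 50 bases after a start. The windows were searched on both strands for CATGTG, the core letters of the site bound by MITF in pigment genes, and for CACGTG, the related E-box. Slc24a5 and both starts of Trpm1 held CATGTG, the second start of Trpm1 also held CACGTG, and the windows of Cd63 and Gpnmb held neither. Of 32851 such windows in the mouse, 14.2% held CATGTG and 7.15% held CACGTG. The 3 stretches that lie before a start are shown on the plus strand, with the matching letters in capitals, because the cell-to-cell comparisons below set these genes beside Mitf.
Slc24a5, chr2:125068087-125068126, match from position -13: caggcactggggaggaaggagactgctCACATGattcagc
Trpm1 first start, chr7:64153667-64153726, match from position -141: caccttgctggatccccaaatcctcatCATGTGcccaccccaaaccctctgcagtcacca
Trpm1 second start, chr7:64185209-64185262, match from position -229: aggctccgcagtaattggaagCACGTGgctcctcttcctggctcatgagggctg
CACATG is CATGTG read on the other strand. A match describes the letters of a window and is not a site shown to be bound.

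The first comparison asks how the parental line and the metastatic subclone differ in these transcripts. Together, the transcripts of the 8 genes made up 0.863% of all UMIs in B16F0 and 0.564% in B16F10, a log2 ratio of -0.61 (-0.62 to -0.61). Trpm1 and Cd63 were lower in B16F10 by more than 2-fold, Mlana and Pmel by more than 1.5-fold, and Slc24a5 and Gpr143 by less. Gpnmb was at almost the same level in both lines, and Slc45a2 was higher in B16F10. The members therefore did not move as a block, and the transporter genes Slc45a2 and Slc24a5 went in opposite directions.

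The fibril gene Pmel was counted at 1243 CPM (1236 to 1250) in the parental line and at 732 CPM (725 to 739) in the subclone. Its log2 ratio was -0.76 (-0.78 to -0.75). Mlana, whose product binds PMEL, was counted at 2703 CPM (2693 to 2714) in the parental line and at 1582 CPM (1572 to 1593) in the subclone, and its log2 ratio was -0.77 (-0.78 to -0.76). These partners were thus lower by about the same factor, 1.70-fold and 1.71-fold. The PMEL relative Gpnmb was counted at 1745 CPM (1737 to 1754) in the parental line and at 1729 CPM (1719 to 1740) in the subclone, and its log2 ratio was -0.01.

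Cd63, the sorting tetraspanin, was counted at 2162 CPM (2153 to 2171) in the parental line and at 931 CPM (923 to 939) in the subclone. Its log2 ratio of -1.22 (-1.23 to -1.20) is a 2.32-fold lower level. The transporter gene Slc45a2 was counted at 219.8 CPM (217 to 223) in the parental line and at 289 CPM (284 to 293) in the subclone, and its log2 ratio was 0.39 (0.36 to 0.42). Slc24a5, which encodes a potassium-dependent sodium-calcium exchanger, was counted at 457 CPM (453 to 462) in the parental line and at 322 CPM (318 to 327) in the subclone, and its log2 ratio was -0.51 (-0.53 to -0.48). These are the only transporters of the set, and their intervals lie on opposite sides of 0.

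The channel gene Trpm1 was counted at 77.9 CPM (76.1 to 79.7) in the parental line and at 33.4 CPM (31.9 to 34.9) in the subclone, where it rests on 1894 UMIs. Its log2 ratio was -1.22 (-1.30 to -1.15). The receptor gene Gpr143 was the most thinly counted, with 2477 and 1223 UMIs, or 26.3 CPM (25.3 to 27.3) and 21.6 CPM (20.4 to 22.8). Its log2 ratio of -0.29 (-0.39 to -0.19) lay below 0 with its whole interval.

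The 8 genes were chosen with earlier results of these data known, so the shares that follow are a description. All 8 reached 20 CPM in the higher library. Of the 5296 genes that did, 1.6% were at least 2-fold lower in B16F10, against 2 of the 8 (Trpm1 and Cd63), and 1.53% were at least 2-fold higher, against none of the 8. At 1.5-fold, 6.12% of genes were lower, against 4 of the 8 (Trpm1, Cd63, Mlana and Pmel), and 10.6% were higher, against none. The median log2 ratio was -0.63 over the 8 genes and 0.12 over all genes. Only 1.04% of genes had a lower ratio than Trpm1 and 1.08% a lower ratio than Cd63, whereas 37.3% lay below Gpnmb and 77.7% below Slc45a2. With TMM factors, which moved the median of all genes to 0.01, 110 genes were 2-fold lower and 55 higher, against 85 and 81, and Trpm1 and Cd63 were still the members called. At 1.5-fold the count of lower members depended on scaling. It was 5 with TMM factors, as Slc24a5 moved to -0.60, and the matching share of all genes was not counted.

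**Figure D1:**
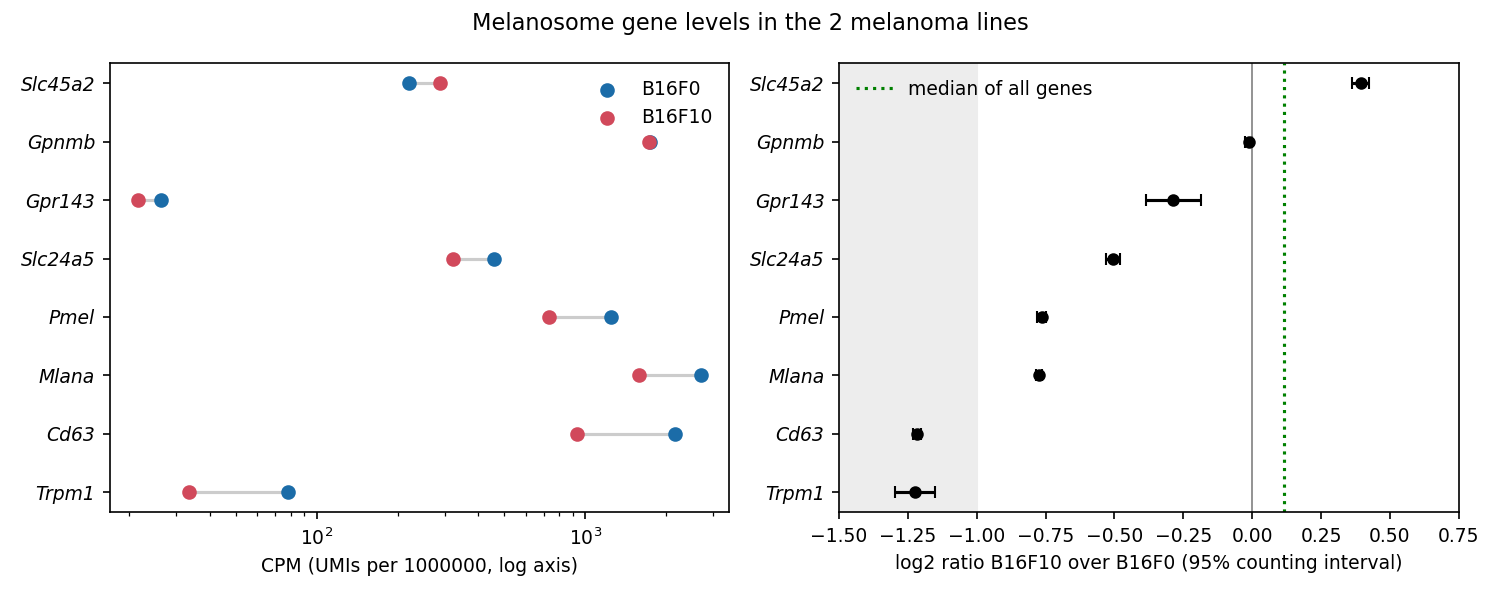
Left, the level of each gene in CPM (log axis) in B16F0 (blue) and B16F10 (red); right, the log2 ratio B16F10 over B16F0 with its 95% counting interval, with the median of all genes at 0.12 dotted and ratios of 2-fold lower or less shaded. Trpm1 and Cd63 lie in the shaded zone, Gpnmb lies at -0.01 and Slc45a2 lies above 0.

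On mouse assembly GRCm38, all 8 are annotated by GENCODE as protein coding and on the plus strand, and counts are given per gene. Pmel lies on chromosome 10 from 128704195 to 128720238 and Cd63 on the same chromosome from 128900989 to 128912822, 180751 bases beyond the end of Pmel. Mlana lies on chromosome 19 from 29697824 to 29708634, Gpnmb on chromosome 6 from 49036546 to 49070929, and Trpm1 on chromosome 7 from 64153835 to 64269775. Slc45a2 lies on chromosome 15 from 11000721 to 11029233, Slc24a5 on chromosome 2 from 125068124 to 125088677, and Gpr143 on chromosome X from 152781921 to 152808646. A processed copy of Cd63 is annotated on another chromosome as Cd63-ps. How the counting treated reads shared between the copies is not stated in the labels, so the Cd63 level is uncertain by that share.

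Most genes around Pmel and Cd63 were also lower in B16F10. Of 15 genes of at least 20 CPM that start within 500 kb of Pmel (Cd63 among them), 14 had a log2 ratio below 0, with a median of -0.49, against a median of 0.12 and 38.6% below 0 over all genes. Leaving out Cd63, 13 of 14 were below 0, with a median of -0.46. Erbb3, a receptor tyrosine kinase gene, had a log2 ratio of -1.09, and Myl6, a myosin light chain gene named after its value was seen, had -0.69. Between -2000 and -500 kb of the start of Pmel, 17 of 18 genes were below 0 (median -0.34), and no gene of that level started more than 500 kb after it. Between -10000 and -2000 kb, 6 of 9 genes were below 0 (median -0.06), and between -30000 and -10000 kb 12 of 19 were (median -0.14). Chromosome 10 as a whole had a median of 0.04 over 268 genes, with 44.4% of them below 0. These windows beyond 500 kb were added after the values were seen. The part of this shared shift in the lower Pmel and Cd63 levels was not tested.

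The neighbour of Pmel that was not lower was Cdk2, the cell cycle kinase gene, which starts 836 bases from the start of Pmel on the opposite strand, so that the annotated genes overlap by 837 bases. Cdk2 was counted at 74.1 CPM in the parental line and at 106 CPM in the subclone, and its log2 ratio was 0.52 (0.47 to 0.57). The overlap lies at the annotated 5' end of both genes, whereas transcripts were caught by the 3' end. Whether the counting used strand is not stated in the labels, so any reads in the overlap cannot be assigned to either gene here. Within each line, Cdk2 went with Pmel from cell to cell. The Pearson r was 0.36 over 2194 B16F0 cells and 0.30 over 1416 B16F10 cells. These values exceed those of 99.9% and 99.8% of all gene pairs, which were not matched to this pair by level. So this pair differed in opposite directions between the lines while it varied together among the cells of each. For Mlana and Cdk2, on different chromosomes, r was 0.30 and 0.24, and for Cd63 and Cdk2 it was 0.13 and 0.08.

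**Figure D2:**
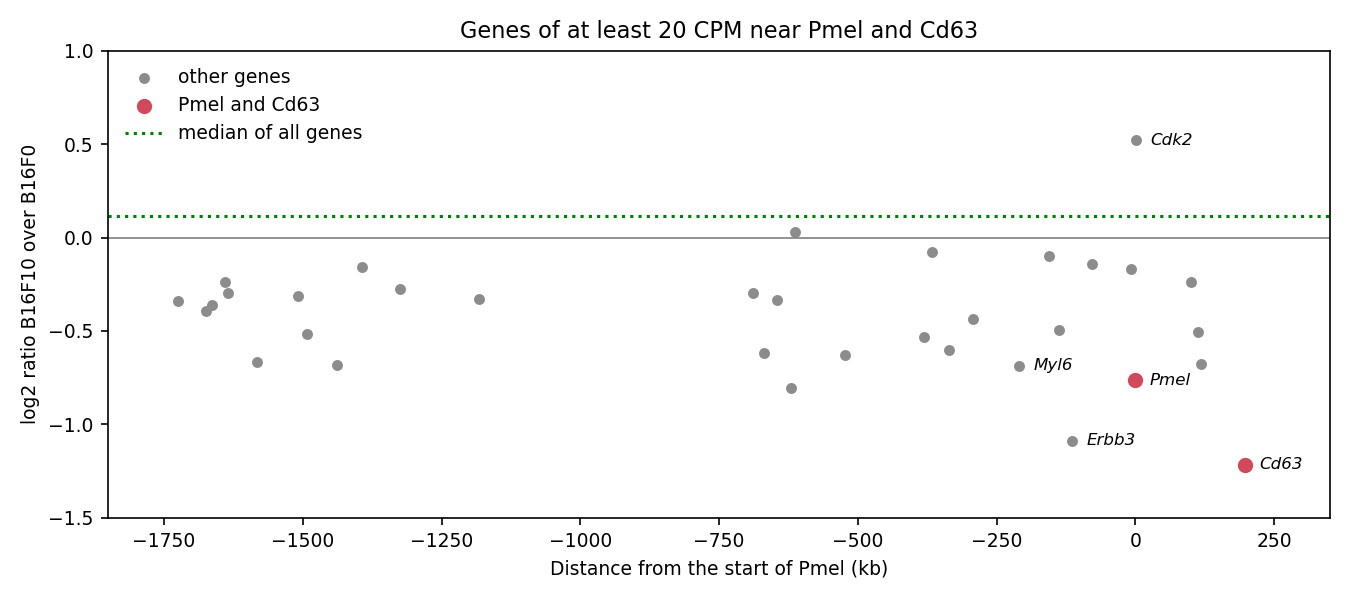
The log2 ratio B16F10 over B16F0 of each gene of at least 20 CPM against the distance of its start from the start of Pmel, in kb. Pmel and Cd63 are red, the median of all genes at 0.12 is dotted, and Cdk2 at 0.52 stands above a neighbourhood that is otherwise mostly below 0.

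The neighbourhoods of the other members were thin and mixed. Gpnmb had 6 neighbours within 500 kb, 4 of them below 0, with a median of -0.38, although Gpnmb itself had -0.01. Trpm1 had 3 neighbours with a median of 0.04 beside its own -1.22, and Mlana, Slc45a2 and Slc24a5 had 2 each and Gpr143 had 1, with medians from 0.01 to 0.15. None of the neighbours of these 6 genes was 2-fold apart.

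The pathway around the 8 genes was described with lists of genes by role, chosen with earlier results of these data known. They were read at 1.5-fold and at least 20 CPM, where 6.12% of all genes were lower and 10.6% higher. Of 12 genes of PMEL sorting and processing, 6 reached that level, of which 2 were lower in B16F10, 4 lay between and none was higher, with a median of -0.37. Apoe, whose protein loads PMEL onto endosomal vesicles, had a log2 ratio of -1.43 (-1.46 to -1.41), with 767 CPM in the parental line and 284 in the subclone. Psen2, which encodes a subunit of a membrane protease, had -0.72. Of the 3 melanin enzymes, Tyr was lower at -1.74, Tyrp1 higher at 0.69 and Dct between at 0.34. Of 10 regulators, 5 reached that level, of which 2 were higher (Mitf at 0.86 and Mc1r at 0.73) and none lower, with Pax3 at 0.48 and Sox10 at 0.40. So 4 of the 8 members were at least 1.5-fold lower in the line in which Mitf and Mc1r were at least 1.5-fold higher.

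The cargo sorting machinery stood near the typical gene. Of its 26 genes, 16 reached that level, of which 1 was lower (Bloc1s5 at -0.68), 15 lay between and none was higher, with a median of 0.03, Ap3d1 at 0.37 (0.30 to 0.45) and Ap3s1 at -0.36. Of 12 genes of melanosome ions and pH, 5 reached it, of which 1 was lower (the proton pump gene Atp6v0d1 at -0.82), with Atp6v1b2 at 0.30 and Clcn7 at -0.29 and a list median of -0.26. Of 17 tetraspanins other than Cd63, 9 reached it, of which 1 was lower (Cd9 at -0.84) and none was higher. Their median was 0.10, Tspan4 had 0.50 and Tspan13 had 0.34. Lysosomes share membrane proteins with melanosomes, CD63 among them. Of 23 lysosome genes, 21 reached it, of which 7 were lower and none was higher. Their median was -0.24, and the lowest were Grn at -1.45, Sqstm1 at -1.12 and Ctsl at -0.86. Cd63, at -1.22, had a lower ratio than each of these 9 tetraspanins, and of the lysosome genes only Grn had a lower one.

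The share of cells in which a transcript was seen set 6 broadly detected genes apart from 2 sparse ones. To compare shares, each cell was thinned at random to 23173 UMIs, and 388 parental cells and 158 cells of the subclone that were shallower than this were set aside. Trpm1 had a UMI in 54.0% of the parental cells so treated (51.9 to 56.1) and in 28.4% of those of the subclone (26.1 to 30.8), against 60.8% and 34.4% without thinning. For Gpr143 the shares were 39.9% (37.8 to 42.0) and 36.6% (34.1 to 39.2), against 51.8% and 48.7% without thinning. For Pmel the thinned shares were 96.8% and 96.7%, and the unthinned ones 98.0% and 97.5%. Slc45a2, the gene that was higher in the subclone, had thinned shares of 93.3% and 96.7% and unthinned ones of 94.97% and 97.6%. Slc24a5, Mlana, Gpnmb and Cd63 were each seen in at least 98.2% of thinned cells of either line, and in at least 99.2% of all cells. No other cell type was cultured, so no background share for free RNA could be taken from cells that lack these genes.

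Among cells of the same line, Pmel varied most widely among the abundant members. Thinned B16F0 cells held from 0 to 191 Pmel UMIs, with a median of 21 and a middle 80% from 3 to 65, and thinned B16F10 cells from 0 to 255, with a median of 12 and a middle 80% from 2 to 38. Mlana had a middle 80% of 23 to 103 UMIs around a median of 60 in B16F0 and of 11 to 62 around 33 in B16F10. Cd63 had 26 to 75 around 48 in B16F0 and 8 to 35 around 19 in B16F10, so the ranges of the lines overlapped for each of these genes.

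Beyond counting noise, the coefficient of variation between cells was 92.2% for Pmel in B16F0 and 100.3% in B16F10, 49.7% and 58.5% for Mlana, 48.0% and 40.3% for Gpnmb, and 35.8% and 47.1% for Cd63. For Trpm1 it was 126% and 213%, with 25 and 19 UMIs in the highest cell of each line and a median cell at 1 and 0. The variance over the mean, which is 1 for counting noise alone and grows with the mean, was 25.5 and 17.9 for Pmel, against a median of 1.19 over 4550 genes in B16F0 and 1.20 over 4888 genes in B16F10. After thinning, 71.6% of B16F10 cells and 46.0% of B16F0 cells held no Trpm1 UMI.

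The members varied together from cell to cell, and 27 of the 28 pairs had a higher correlation in B16F0 than in B16F10. Over 2194 thinned B16F0 cells, all 28 pairs had a positive Pearson r of log(1 + UMIs), from 0.21 to 0.65 with a median of 0.36. Over 1416 thinned B16F10 cells, 27 of 28 pairs were positive, from -0.01 to 0.53 with a median of 0.24. Over 9459075 pairs of the 4350 genes with at least 0.5 thinned UMI per cell, the median r was 0.01 in each line, and the central 95% lay between -0.10 and 0.12 in B16F0 and between -0.11 and 0.15 in B16F10. All cells of a line share 1 library. Sparse counts lower r, and the pairs of all these genes were not matched to the member pairs by level. The part of level in the gap between them was not tested. For the same reason the values of Gpr143 and Trpm1 are not comparable with those of the abundant genes. The part of the lower levels in B16F10 in its lower correlations was not tested, nor was that of its different mix of clusters. Within narrower sets of cells the median r moved in both lines, as given further below.

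The median r of a member with the other members was highest for Mlana (0.53) and Pmel (0.52) in B16F0 and for Pmel (0.39) in B16F10. In B16F0 the r of Pmel was 0.65 with Gpnmb, 0.65 with Slc24a5, 0.64 with Mlana and 0.52 with Slc45a2. In B16F10 the same pairs had 0.39, 0.51, 0.53 and 0.39, so the drop was largest for Pmel with Gpnmb. Mlana with Gpnmb had 0.58 in B16F0 and 0.23 in B16F10, and by rank (Spearman) 0.37 and 0.14.

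Cd63 stood partly apart. With Mlana it formed the only pair that was higher in B16F10, by a small margin (0.37 in B16F0). Its r in B16F10 was 0.39 with Mlana and 0.34 with Slc24a5, but 0.11 with Gpnmb and -0.01 with Slc45a2. With Slc45a2, the r of -0.01 compares with 0.22 in B16F0, and these are the member with the highest line ratio and 1 of the 2 with the lowest. Among non-cycling B16F10 cells this pair had -0.12, and without thinning 0.05.

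**Figure D3:**
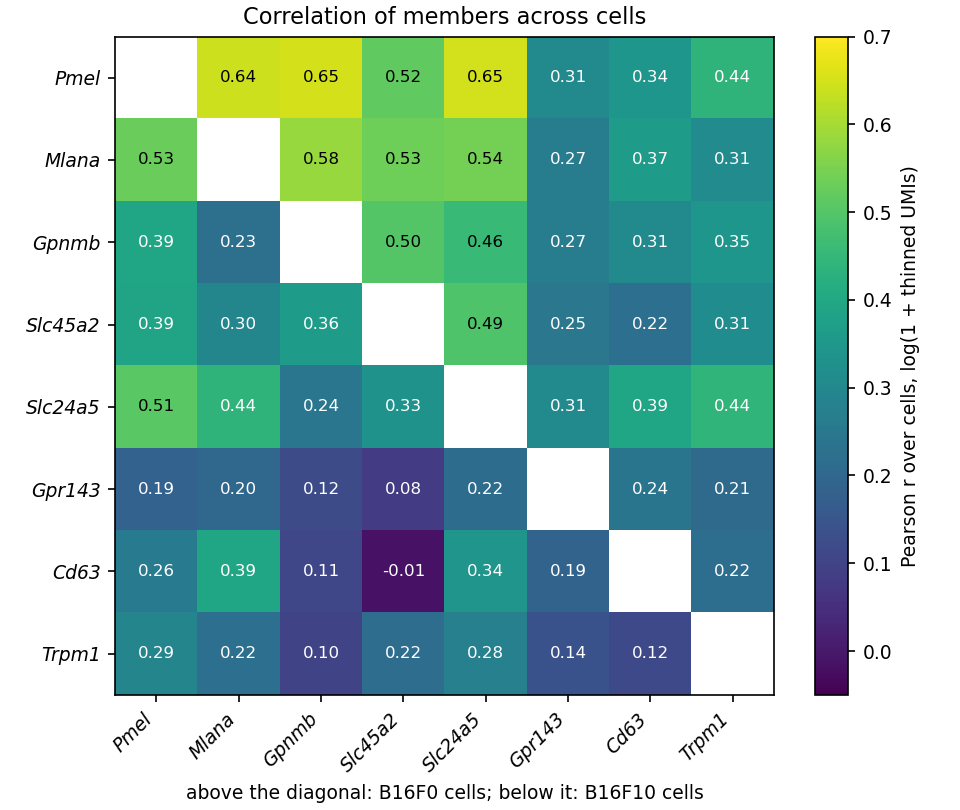
Pearson r of log(1 + thinned UMIs) for each pair of members, over 2194 B16F0 cells above the diagonal and 1416 B16F10 cells below it. Pairs among Pmel, Mlana, Gpnmb, Slc45a2 and Slc24a5 are the highest in B16F0, and most values are lower in B16F10.

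Outside the set, the genes most like each member were taken from 4158 candidates by the mean r of the 2 lines. Dct, a melanin enzyme gene, led for Pmel (0.71 in B16F0 and 0.46 in B16F10), Gpnmb (0.64 and 0.41) and Slc45a2 (0.55 and 0.51). Apoe and Bace2, which encode the loading protein and a protease that cleaves PMEL, came next for Pmel, at 0.68 and 0.47 and at 0.59 and 0.46. Bace2 led for Slc24a5 (0.56 and 0.46), Trpm1 (0.45 and 0.37) and Gpr143 (0.27 and 0.24).

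The other leading genes were mixed. Mlana had Cyb5a, an electron carrier gene, first (0.62 and 0.46), then Dct and Apoe. Cd63 had Apoe first (0.51 and 0.49), then the peroxiredoxin gene Prdx1 (0.53 and 0.41) and the ubiquitin gene Ubb (0.46 and 0.45). Tyrp1 came next for Slc45a2 and Gpnmb, followed by Syt4 and Syngr1, Apoe and Dct followed Bace2 for Slc24a5, Apoe and Ptgds followed it for Gpr143, and Ptgds followed it for Trpm1.

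Mitf transcripts were a weak guide to the members within a line. The Spearman correlation with Mitf ran from 0.05 (Cd63) to 0.20 (Slc24a5) in B16F0 and from -0.06 (Cd63) to 0.16 (Slc45a2) in B16F10. With Sox10 it ran from -0.05 to 0.04 in B16F0 and from -0.12 to 0.04 in B16F10. With the authors' deposited MITF score it ran from 0.41 (Cd63) to 0.74 (Pmel) in B16F0 and from 0.22 (Cd63) to 0.59 (Pmel) in B16F10. The labels do not list the genes behind that score, so members may be part of it. The parental library held 90.5 CPM of Mitf against 77.9 of Trpm1, and the subclone library 164 against 33.4. The Spearman correlation of Trpm1 with the other members ran from 0.22 to 0.46 among parental cells and from 0.10 to 0.30 among those of the subclone. Sparse counts lower a correlation, and the part of this in the Mitf values was not tested.

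The deposited cell classes were made by the authors from these same cells, so levels by class are a description. In B16F0, all 8 genes were highest in cluster C3 and lowest in cluster C2. Pmel had 965 CPM in C1, 727 in C2, 1828 in C3 and 1615 in C4, and Trpm1 had 63.6, 38.8, 130 and 86.7 CPM in the same order. Gpnmb had 1558, 1326, 2249 and 1960 CPM, Cd63 2260, 1750, 2492 and 2138 CPM, and Mlana 2695, 2233, 3044 and 2898 CPM. The highest cluster exceeded the lowest by 3.34-fold for Trpm1, 2.51-fold for Pmel and 2.37-fold for Gpr143, but by 1.42-fold for Cd63 and 1.36-fold for Mlana. Against the rest of the line, Trpm1, Pmel and Gpr143 were at least 1.5-fold higher in C3, as were 3.31% of genes, and the same 3 were at least 1.5-fold lower in C2, as were 3.23% of genes. In C2, 641 of 644 cells were called cycling, and in C3 71 of 640. C4 held 467 cycling cells of 469, with 1615 CPM of Pmel against 727 in C2, so the clusters of cycling cells differed among themselves.

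In B16F10, cluster C4 stood out as low. There Pmel had 438 CPM, against 805 in C3 and 762 in C5, Mlana had 950 against 1436 and 1727, and Cd63 had 597 against 963 and 976. Gpr143 was low there as well, at 11.2 CPM against 22.9 and 23.0, and Trpm1 had a log2 ratio of -1.25 to the rest of the line. These 5 genes were at least 1.5-fold lower in C4 than in the rest of the line, as were 9.87% of genes. Slc45a2 was not low there, at 317 CPM in C4, 351 in C3 and 269 in C5. All 212 cells of C4 were called cycling. They had a median of 29693 UMIs and 8.43% mitochondrial UMIs, against 37725 and 6.20% in C5, and the part of these in the lower levels was not tested.

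**Figure D4:**
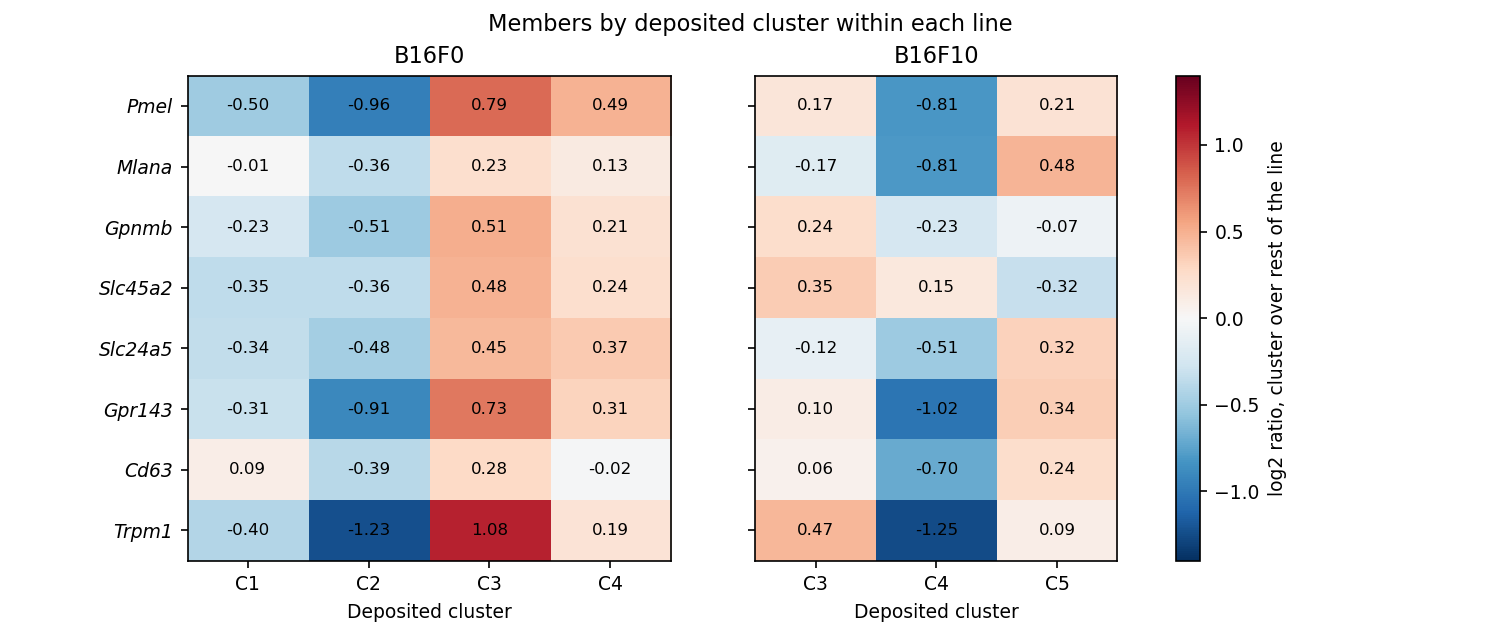
The log2 ratio of each member in a deposited cluster over the rest of the same line, for clusters of at least 50 cells. In B16F0 every member is above 0 in C3 and below 0 in C2; in B16F10 every member but Slc45a2 is below 0 in C4.

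Where a class held at least 50 cells of each line, the lines were compared within it. In cluster C3, 4 of the 8 genes were at least 2-fold lower in B16F10 (Trpm1, Cd63, Pmel and Mlana), as were 2.2% of genes. In cluster C4, 6 of the 8 were (all but Gpnmb and Slc45a2), as were 5.01% of genes, with log2 ratios of -1.88 (-1.94 to -1.83) for Pmel, which had 1615 CPM in the parental cells of C4 and 438 in those of the subclone, and -2.53 (-2.84 to -2.23) for Trpm1. In C4 the subclone's cells had 8.43% mitochondrial UMIs and a median of 29693 UMIs, against 4.94% and 38645 in the parental cells, and in C3 7.77% and 30159.5 against 5.27% and 34614.5. The part of these in the ratios was not tested. The line ratios of Pmel, Mlana, Cd63, Slc24a5, Gpr143 and Trpm1 lay farther from 0 within both clusters than over all cells. Clusters C1 and C2, where the parental cells had less Pmel, held only 7 and 4 cells of the subclone. Slc45a2 was higher in B16F10 within both shared clusters, at 0.33 and 0.34, and Gpnmb was lower, at -0.18 and -0.39.

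The trajectory states deposited by the authors ordered the parental cells in a like way. Within B16F0, 7 of the 8 genes were lowest in state 4, in which all 547 cells were called cycling, and 6 of these (all but Mlana) were highest in state 7, in which 20 of 454 were. Trpm1 had 48.1 CPM in state 4 and 138 CPM in state 7, Pmel 947 and 1698 CPM, Gpr143 21.0 and 35.4 CPM, and Gpnmb 1450 and 2211 CPM. Trpm1 was the only member at least 1.5-fold higher in state 7 than in the rest, as were 3.26% of genes, and the only member at least 1.5-fold lower in state 4, as were 1.16%, and in state 2, as were 0.799%. Mlana had its highest level in state 6, at 2869 CPM against 2468 CPM in state 4. Cd63 was lowest in state 1 and highest in state 6, at 1882 and 2455 CPM. All 165 parental cells of state 1 were called cycling, and 12 of 569 in state 6. Pmel nevertheless had 1445 CPM in state 1 and 1243 CPM in state 6. Gpnmb, Slc45a2 and Slc24a5 were also higher in state 1, whereas Mlana, Gpr143 and Trpm1 were lower there, as was Cd63.

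Nearly all B16F10 cells were in states 1 and 7, and no member differed between these by more than 1.24-fold. Between the lines, 3 of the 8 genes (Trpm1, Cd63 and Pmel) were at least 2-fold lower in the subclone within state 7, as were 1.62% of genes, and Trpm1 and Cd63 were within state 1, as were 1.77%. In state 7, Trpm1 had 138 CPM in parental cells and 39.6 CPM in the subclone, and in state 1 it had 69.1 and 32.0 CPM.

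Every member made up a smaller share of the UMIs in cycling than in non-cycling cells of the parental line, mostly by small amounts. Cycling cells were deeper, with a median of 37356 against 33745 UMIs, so a smaller share need not mean fewer UMIs per cell. In B16F0, Trpm1 had 63.1 CPM in cycling and 96.97 CPM in non-cycling cells, a log2 ratio of -0.62, and was the only member at least 1.5-fold lower, as were 1.03% of genes. The others ran from -0.34 for Gpr143 to -0.04 for Slc24a5. In B16F10 no member reached 1.5-fold in either direction, where 3.43% of genes were lower and 13% higher, and the range was from -0.28 for Trpm1 to 0.22 for Mlana.

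The difference between the lines was present in both classes of cells. Among non-cycling cells the log2 ratio was -1.32 for Trpm1, -1.26 for Cd63 and -1.01 for Mlana, which were at least 2-fold lower in the subclone, as were 1.85% of genes, and -0.95 for Pmel. Among cycling cells it was -1.13 for Cd63, the only member at least 2-fold lower there, as were 1.54% of genes, and -0.98 for Trpm1, -0.69 for Mlana and -0.62 for Pmel. Slc45a2 was higher in the subclone in both, at 0.47 and 0.40.

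A small group of B16F0 cells formed a shoulder at the low end of Mlana. In bins of 5 thinned UMIs starting at 0, 5, 10 and 15 there were 47, 57, 33 and 52 B16F0 cells, ahead of a main peak of 168 cells in the bin starting at 65, and 114 of 2194 cells, 5.20% (4.30 to 6.21), held at most 10 Mlana UMIs. This limit was set after the values were seen, so what follows is a description. In these cells Pmel averaged 1.60 UMIs, against 30.4 in the other B16F0 cells, Slc45a2 0.719 against 5.27, Trpm1 0.149 against 1.90 and Gpr143 0.0877 against 0.626. Slc24a5 averaged 2.73 against 10.9 and Gpnmb 11.1 against 41.9. Cd63 was the exception, at 38.7 against 50.5, a log2 ratio of -0.38.

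The melanin enzyme gene Dct averaged 6.36 against 56.1 UMIs in the same cells and Mitf 0.693 against 2.19, while Sox10 was nearly level at 1.64 against 1.89. The Mlana-low cells were as deep as the others, with medians of 37457.5 and 37816 UMIs, held 5.71% and 5.46% mitochondrial UMIs, and 59 of the 114 were in cluster C1 and 46 in cluster C2. With a limit of 5 UMIs there were 63 such cells and with 20 UMIs 195. In B16F10, where the limit of 10 UMIs cuts into the main peak, 128 of 1416 cells fell below it, with Pmel at 5.52 against 17.9 UMIs, Gpnmb at 29.8 against 41.2 and Mitf at 3.64 against 3.85. Without the Mlana-low cells the median r over the 28 pairs was 0.34 in B16F0 and 0.20 in B16F10.

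**Figure D5:**
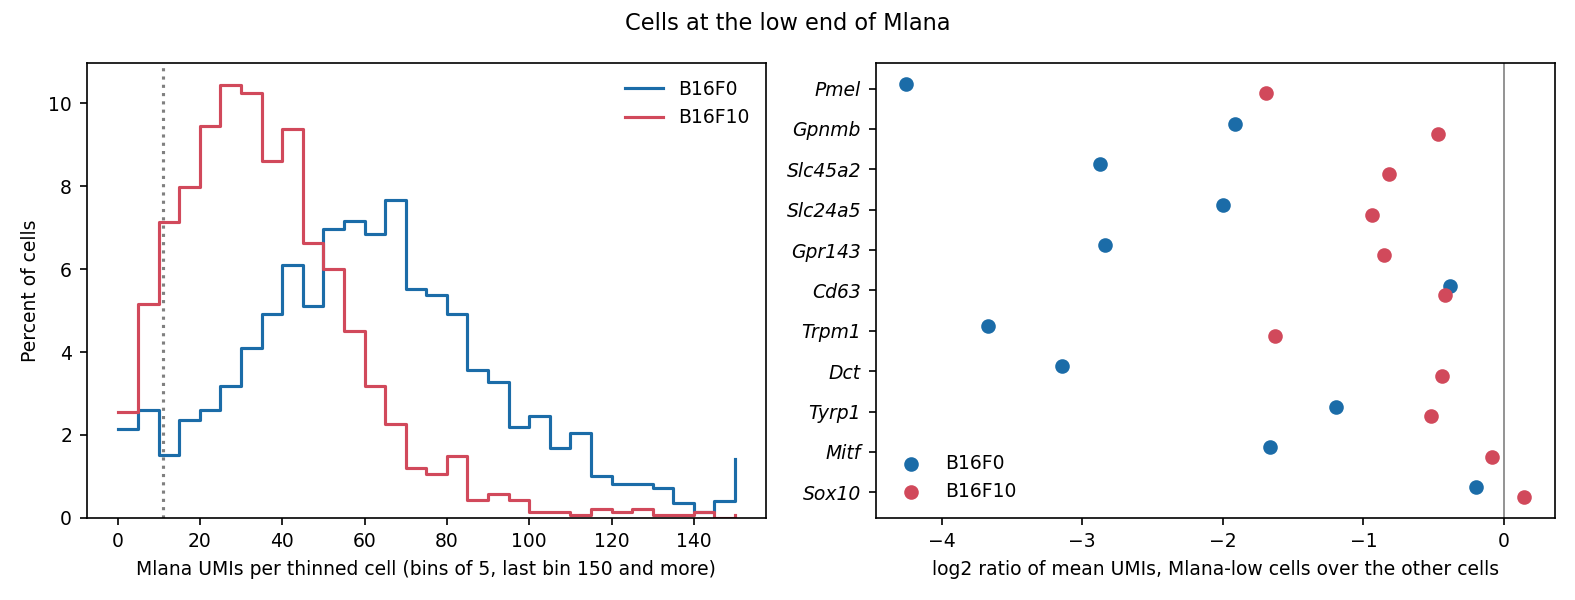
Left, the percent of thinned cells by Mlana UMIs in B16F0 (blue) and B16F10 (red), with the limit of 10 UMIs dotted; right, the log2 ratio of mean UMIs in Mlana-low cells over the other cells of the line. In B16F0 the 6 members other than Mlana and Cd63 lie between -4.25 and -1.91, and Cd63 and Sox10 lie near 0.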

How the data were processed

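The submitters made 1 single-cell library per line with 10x Chromium reagents (chemistry v2), per the labels. Their processing notes list Cell Ranger 3.0.0, Seurat 3.0 and mm10 without saying what each did, and no source used here states how cells were filtered. The authors deposited UMI counts that are not normalized, and beside them cell classes and a MITF score without a stated recipe. Copies of these files and a natural log version of the deposited counts were left out.

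The members and lists were chosen with earlier results of these data known. Genes named are the 8 members, Mitf, Sox10, the 3 genes most correlated with each member (no predicted, ribosomal protein or mitochondrial genes), the 3 largest ratios of each list and neighbours at 2-fold. Cdk2, Myl6 and the other genes set beside the Mlana-low cells were named after their values were seen. Some genes that the rule names are not reported here.

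Counts were summed per library, or per class of at least 50 cells, and divided by the total. Every cell entered, no doublet caller was run, and 1 alternative drops the 5% of cells with the most UMIs. Levels carry exact Poisson intervals, ratios conditional binomial intervals and shares Clopper-Pearson intervals. Calls are by fold alone. On Poisson counts simulated for 14959 genes the ratio intervals held the true value in 94.6% of genes at 20 CPM. The intervals assume this same counting noise, so the simulation checks the calculation alone. It cannot show how the intervals fare with the spread between cells or cultures. Positions are from GENCODE M21, in which 98.6% of symbols matched. Alternative scalings came from edgeR 4.0.16 and DESeq2 1.42.0 (R 4.3.3), and other steps used Python 3.11.15 with numpy 2.4.6, scipy 1.17.1, pandas 2.3.3 and matplotlib 3.10.9.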

Additional observations from a re-analysis of the deposited data

Results flagged for a closer look

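For 3 members the cycling over non-cycling log2 ratio had opposite signs in the 2 lines, with both counting intervals off 0. It was -0.10 in B16F0 and 0.22 in B16F10 for Mlana, -0.29 and 0.04 for Pmel, and -0.04 and 0.16 for Slc24a5. The difference between the lines was not tested, since each line is 1 library. The B16F10 value of Pmel changed sign under 3 of 4 other settings, to -0.07 at the lowest, whereas those of Mlana (0.11 to 0.21) and Slc24a5 (0.05 to 0.12) did not.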

How the results depend on the processing

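Over 12 other scalings and sets of cells, the log2 line ratio ran from -0.95 to -0.62 for Pmel, -1.01 to -0.68 for Mlana, -1.32 to -1.13 for Cd63, -1.36 to -0.98 for Trpm1, -0.66 to -0.46 for Slc24a5, -0.39 to -0.15 for Gpr143 and 0.26 to 0.47 for Slc45a2. That of Gpnmb ran from -0.12 to 0.03 and changed sign in 4 of them. TMM factors moved the median of all genes from 0.12 to 0.01 and the higher share of 2-fold calls from 48.8% to 33.3%. The count of members at least 2-fold lower was 1 among cycling cells, where the ratio of Trpm1 was -0.98, and the cause was not tested. Genes at least 2-fold higher numbered 127 among non-cycling cells, against 81, and the cause was not tested. With no CPM minimum, 954 genes were higher and 1144 lower, against 81 and 85, and at 100 CPM 8 and 26, as more or fewer genes were counted. The median pair correlation was 0.30 within the largest B16F0 cluster and 0.29 among non-cycling B16F10 cells, and the cause was not tested. The correlation of Slc45a2 and Gpr143 in B16F10, 0.08, was -0.0072 with cells thinned to 11586 UMIs. No paired analysis was possible because each line has 1 library, and no replicate could be left out. Shares of cells with Trpm1 or Gpr143 move with depth.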

Other observations

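The Mlana-low cells, chosen after their values were seen, also differed from the other cells in genes outside the members. Among 4476 genes, the 8 highest by the mean log2 ratio of both lines were Prss23, S100a6, Fn1, Lhfp, Hspb6, Cnn2, Pdlim2 and Adamts1. Prss23, Fn1 and Hspb6 averaged below 0.5 thinned UMIs in the other cells of both lines. Lhfp and Pdlim2 did so in B16F0, and S100a6 did so in B16F10. In B16F10 the limit of 10 Mlana UMIs also cuts into the main peak. A gene this sparse elsewhere may enter such a ranking only through the picked cells, so the order is no support. S100a6, a calcium-binding protein gene, had 5.04 against 0.50 thinned UMIs per cell in B16F0 and 1.53 against 0.366 in B16F10. The fibronectin gene Fn1 had 1.68 against 0.189 UMIs in B16F0 and 1.41 against 0.481 in B16F10, the protease gene Prss23 1.62 against 0.113 and 0.641 against 0.203, and the calponin gene Cnn2 5.25 against 1.18 and 2.45 against 1.02. On the low side, with the members left out, Bace2 came first at 0.202 against 3.45 UMIs in B16F0 and 0.633 against 2.79 in B16F10, and Cdk2 was also low at 0.237 against 1.84 and 1.38 against 2.61. These cells were picked on Mlana within 1 library per line, so the values describe those cells and carry no test.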
